A study of Caenorhabditis elegans with 2 samples.

Results

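Heterochronic genes set which larval fate a cell of Caenorhabditis elegans adopts at which stage. The 8 protein-coding members, lin-14, lin-28, lin-46, hbl-1, lin-41, lin-29, lin-42 and daf-12, were taken by name, 8 of 19985 annotated protein-coding genes. For each, the binding of TBX-2 was read from 2000 bp upstream to 200 bp downstream of every annotated transcript 5 prime end, called the start window, and in all introns. TBX-2 belongs to the T-box family of transcription factors, which recognise a short DNA motif, and is known for its part in forming the muscle of the pharynx.

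Chromatin immunoprecipitation followed by sequencing (ChIP-seq) with an antibody against green fluorescent protein (GFP) was done on 2 biological replicates of 1 group. The worms were of strain OP159, with the genotype unc-119(ed3) III; wgIs159, where wgIs159 is a transgene for TBX-2 with a GFP-FLAG tag at its C terminus. They were whole hermaphrodites at the L3 larval stage, taken 48 hours after they had been synchronized as starved L1 larvae. The genotype lists no change of the endogenous tbx-2 gene. There was 1 stage, 1 strain and 1 factor, so nothing here compares stages, and in whole worms a weak site in many cells cannot be told apart from a strong site in few.

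The heterochronic pathway runs as a relay. Early factors are switched off in turn by the microRNAs lin-4 and let-7 and their relatives, which lets later factors act, and the epidermal seam cells are where the order is best known. An early fate repeated or skipped is the classic mutant phenotype, from which the name heterochronic comes.

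Each entry of a deposited peak list has a summit, the base of highest enrichment, and a signal value, the peak caller's own measure of its height. Rank 1 is the highest signal value of a list. The pooled list held 30000 entries from 15.9 to 6024 with a median of 26.0, replicate 1 held 28366 with a median of 16.8, and replicate 2 held 30000 with a median of 14.5. The scales of the lists thus differ, and ranks are the measure to set side by side between them. The label of the authors' thresholded list names IDR, the irreproducible discovery rate, a measure of agreement between replicates. The list proved to be the top 1631 pooled entries by signal value, the lowest at 91.0, and an entry is called thresholded where it is among them. The ranked lists include background by construction, so an entry that is not thresholded is given as a value and not as a site.

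Thresholded summits were found in a start window or an intron of 6 of the 8 genes, 14 summits in all, against 8.07% of all protein-coding genes. Start windows of 5 genes held one (lin-14, lin-28, lin-46, lin-41 and lin-42), against 7.24% of all protein-coding genes. Introns of 4 genes held one (lin-14, lin-28, lin-42 and daf-12), against 1.7% of the 19288 protein-coding genes that have an intron. lin-29 and hbl-1 had none. With start windows of 1000 bp upstream, lin-41 and lin-42 dropped out and the count was 3, against 5.36% of all protein-coding genes. Of all protein-coding genes 0.801% held 2 or more thresholded summits, and of these 8 genes lin-14, lin-28, lin-42 and daf-12 did. The 2 of daf-12 lay 210 bp apart, and the weaker stood at rank 11841 in replicate 2. The share with 2 or more was not computed by gene length. Of the 14 summits, 4 lay in a start window only, 7 in an intron only and 3 in both.

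The sequence searched ranged from 2651 bp in lin-46 to 30357 bp in daf-12. Start windows and introns covered a median of 11463.5 bp in the 8 genes and 2935 bp in all protein-coding genes. Among genes whose windows and introns covered 10000 bp or more, 18.4% held a thresholded summit, against 12.1% of those from 5000 bp to under 10000 bp and 6.87% of those under 5000 bp. Several transcript starts were annotated for 7 of the 8, and 12.7% of all genes with several starts held a thresholded summit. On X, where lin-14, hbl-1 and daf-12 lie, the share was 10.1%, and on the autosomes it was 7.75%. Introns alone covered 16966 bp in lin-14, 1959 bp in lin-28, 16220 bp in lin-42 and 27181 bp in daf-12. The share of genes with a thresholded summit in an intron was not computed by intron length. What gene length adds to the counts over the 8 genes was not tested.

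The sequence around the summits that the results turn on is shown first, the summit base and 100 bp on either side, on the strand of the gene, from the RefSeq sequence of assembly WBcel235 (ce11). Those shown are the strongest summit of daf-12, the strongest intron and window summits of lin-42 and of lin-14, and, for contrast, the strongest entry of lin-29, which was not thresholded. Capitals mark GAGAGA on either strand, and sequences with no capitals hold none.
daf-12, in the first intron, chrX:10637446-10637646, plus strand: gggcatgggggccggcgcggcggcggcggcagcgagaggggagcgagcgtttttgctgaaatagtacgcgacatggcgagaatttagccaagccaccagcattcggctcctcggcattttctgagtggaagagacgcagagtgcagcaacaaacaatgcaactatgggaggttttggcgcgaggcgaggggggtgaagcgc
lin-42, in the first intron, chrII:1246970-1247170, minus strand: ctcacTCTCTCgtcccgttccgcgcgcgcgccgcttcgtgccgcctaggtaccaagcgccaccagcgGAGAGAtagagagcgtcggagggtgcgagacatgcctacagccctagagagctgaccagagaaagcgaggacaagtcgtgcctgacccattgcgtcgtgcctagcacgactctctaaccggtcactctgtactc
lin-42, upstream of the fourth start, chrII:1238009-1238209, minus strand: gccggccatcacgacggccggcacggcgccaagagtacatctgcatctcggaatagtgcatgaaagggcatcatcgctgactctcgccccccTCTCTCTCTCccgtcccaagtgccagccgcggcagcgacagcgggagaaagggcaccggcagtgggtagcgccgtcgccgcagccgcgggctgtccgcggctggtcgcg
lin-14, in the third intron, chrX:11473346-11473546, plus strand: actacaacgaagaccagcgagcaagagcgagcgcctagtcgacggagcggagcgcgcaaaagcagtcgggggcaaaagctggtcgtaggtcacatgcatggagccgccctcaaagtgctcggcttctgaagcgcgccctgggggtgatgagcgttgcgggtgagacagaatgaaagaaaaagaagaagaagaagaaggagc
lin-14 upstream of the first start, chrX:11465271-11465471, plus strand: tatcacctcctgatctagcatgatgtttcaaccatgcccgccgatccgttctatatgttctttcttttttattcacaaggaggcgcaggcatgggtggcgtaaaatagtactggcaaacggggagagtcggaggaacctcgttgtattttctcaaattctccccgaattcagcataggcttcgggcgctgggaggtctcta
lin-29, in the fourth intron, chrII:11928924-11929124, minus strand: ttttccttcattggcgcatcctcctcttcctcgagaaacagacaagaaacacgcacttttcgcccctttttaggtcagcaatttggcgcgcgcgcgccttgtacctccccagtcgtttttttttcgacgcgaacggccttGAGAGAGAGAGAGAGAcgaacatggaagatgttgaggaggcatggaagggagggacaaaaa
GAGA-type repeats are easy to see in both lin-42 sequences and in that of lin-29, and GC-rich runs stand out in daf-12 and lin-42.

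**Figure D1:**
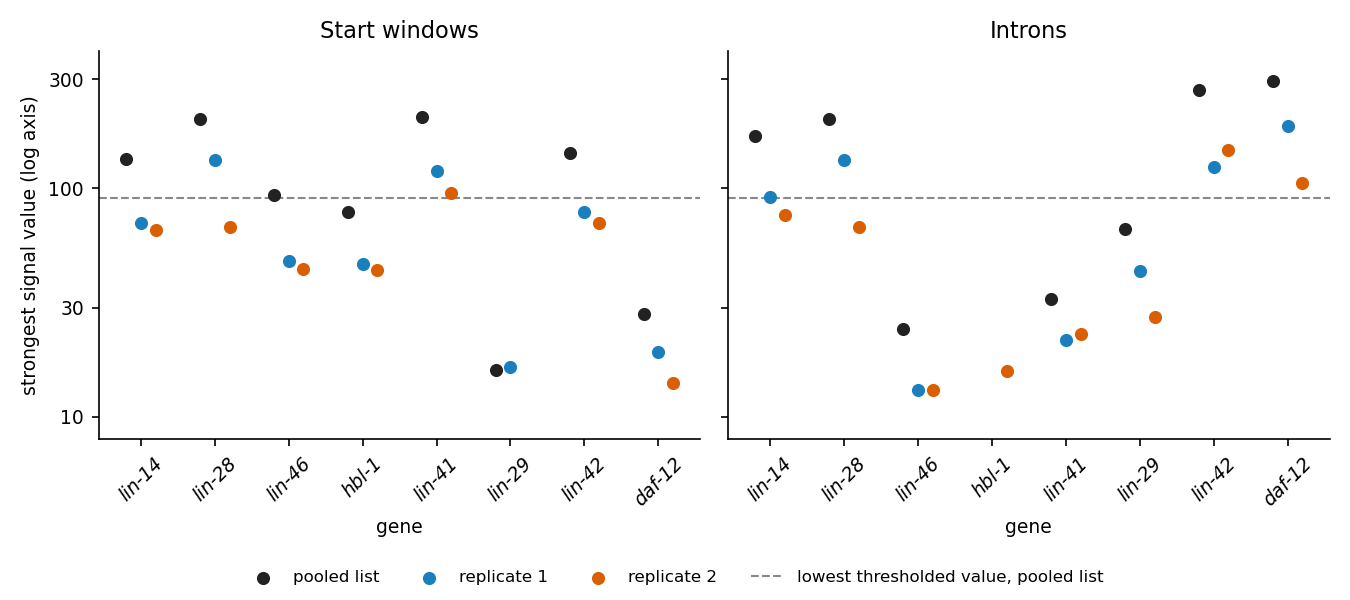
Signal value (log axis) of the strongest entry of each gene in its start windows (left) and introns (right), in the pooled list (black), replicate 1 (blue) and replicate 2 (orange). The dashed line is the lowest thresholded value of the pooled list, 91.0, which 5 genes reach in start windows and 4 in introns. A missing point means that the list had no entry there.

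lin-14 (WBGene00003003, X, 11465560 to 11485871, plus strand) opens the relay: it encodes a nuclear DNA-binding protein that specifies L1 fates and is shut off by the microRNA lin-4. It held 5 thresholded summits, the most of the 8 genes. Only 5 protein-coding genes, or 0.025%, held 5, and none held more. Its windows and introns covered 19074 bp, more than in 99.1% of protein-coding genes, and contained 25 pooled entries in all.

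The strongest lin-14 entry (chrX:11473357-11473508) had a signal value of 169 at rank 608 in the pooled list, 91.9 at rank 623 in replicate 1 and 76.3 at rank 634 in replicate 2. Its ranks were close in all 3 lists. Its summit lay in the third intron, 11174 bp long, of the long transcript T25C12.1a.1, 7886 bp downstream of the first start and 6915 bp upstream of the second, so it belongs to no start window. The entry at the first start (chrX:11465161-11465580) had 135 at rank 878 in the pooled list, 70.7 at rank 975 in replicate 1 and 65.4 at rank 852 in replicate 2. It peaked 189 bp upstream of that start, and it was the thresholded summit nearest to it. A non-coding RNA gene, T25C12.8, starts 66 bp away on the other strand, and the entry cannot be assigned between them.

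The other thresholded lin-14 summits were intronic. The entry at chrX:11467372-11467791, in the first intron of 2818 bp and 2022 bp downstream of the first start, had 144 at rank 767 in the pooled list, 75.2 at rank 872 in replicate 1 and 69.5 at rank 781 in replicate 2. The non-coding RNA gene T25C12.7 starts 52 bp from this summit on the other strand, so here too the entry cannot be assigned between them. The entry at chrX:11471937-11472356, again in the third intron, had 115.4 at rank 1106, then 71.1 at rank 967 in replicate 1 and 44.3 at rank 1667 in replicate 2. It stood lower in replicate 2 than the thresholded number of entries. The last, at chrX:11478794-11479213, had 114.8 at rank 1119, then 59.9 at rank 1290 and 54.4 at rank 1177. It lay in the third intron but also 1357 bp upstream of the second start, that of the short transcript T25C12.1b.1, so each of the 2 lin-14 starts had a thresholded summit in its window. The strongest entry of lin-14 that was not thresholded had 66.9 at rank 2676.

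lin-28 (WBGene00003014, I, 8407630 to 8410804, minus strand) encodes an RNA-binding protein that holds cells in L2 fates and blocks maturation of let-7. It is a short gene with 2 pooled entries, and both were thresholded. The stronger (chrI:8409732-8410151) had 201.2 at rank 432 in the pooled list, 132 at rank 299 in replicate 1 and 67.8 at rank 806 in replicate 2. It peaked 22 bp upstream of the second start, which is also inside the first intron, 1322 bp long, of the transcript that begins at the first start. The weaker (chrI:8411149-8411568), 555 bp upstream of the first start, had 100 at rank 1402, then 68.0 at rank 1042 and 32.6 at rank 2954. Both lin-28 entries were thus lower in rank in replicate 2. The weaker entry also lay 1063 bp upstream of F02E9.7, a coding gene that runs the other way.

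lin-46 (WBGene00003031, V, 12968855 to 12970730, plus strand) encodes a protein related to the scaffold protein gephyrin and acts downstream of lin-28. Its 1 thresholded entry (chrV:12967781-12968200), 864 bp upstream of its only start, had 93.9 at rank 1560 in the pooled list, 47.9 at rank 1861 in replicate 1 and 44.2 at rank 1677 in replicate 2. This was the weakest of the thresholded window entries of the 8 genes, and neither replicate alone placed it among its strongest 1631. The summit lay 9 bp upstream of the coding gene R186.8 and 781 bp upstream of R186.3, both on the opposite strand. By distance the entry is nearer to R186.8 than to lin-46. The only pooled entry in a lin-46 intron had 24.2 at rank 16956, with 13.1 at rank 21684 in replicate 1 and 13.2 at rank 17708 in replicate 2.

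hbl-1 (WBGene00001824, X, 5822142 to 5827755, plus strand) encodes a zinc finger factor related to Hunchback that acts at the passage from L2 to L3 fates, and lin-46 opposes it. Its strongest entry (chrX:5820877-5821296), 1055 bp upstream of the first start, had 78.5 at rank 2104 in the pooled list, 46.5 at rank 1975 in replicate 1 and 43.8 at rank 1702 in replicate 2. It fell short of the threshold in the pooled list and in each replicate at the same number of entries. lin-46 and hbl-1 were close in each replicate, at 47.9 and 46.5 in replicate 1 and at 44.2 and 43.8 in replicate 2, although in the pooled list they lay on either side of the threshold. hbl-1 had no pooled entry in an intron, and its next entry had 39.96 at rank 6628.

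lin-41 (WBGene00003026, I, 9334800 to 9342496, minus strand) encodes a TRIM-NHL protein that binds RNA, represses lin-29 and is itself a let-7 target. Its 1 thresholded entry (chrI:9343749-9344168) had 205 at rank 421 in the pooled list, 118 at rank 378 in replicate 1 and 95.4 at rank 412 in replicate 2. It held about the same place in all 3 lists. It peaked 1463 bp upstream of the first start and was outside the window of the second, 2040 bp away. A neighbouring summit 206 bp from it, 1669 bp upstream of the first start, had 88.5 at rank 1712 in the pooled list, just under the threshold, with 74.9 at rank 880 in replicate 1 and 21.4 at rank 6842 in replicate 2. At the first start itself, 17 bp downstream, the pooled list had only 19.8. Its strongest intronic entry had 32.6 at rank 9841 in the pooled list, 21.8 at rank 8375 in replicate 1 and 9.82 at rank 27409 in replicate 2.

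lin-29 (WBGene00003015, II, 11917642 to 11935343, minus strand) encodes the zinc finger factor at the end of the pathway that drives the change from larva to adult. All of its 10 pooled entries lay under the threshold. The strongest (chrII:11928814-11929233), in the fourth intron of 10530 bp and 6319 bp downstream of the first start, had 66.3 at rank 2692 in the pooled list, 43.5 at rank 2222 in replicate 1 and 19.004 at rank 8787 in replicate 2. The non-coding RNA gene Y17G7A.4 starts 10 bp from this summit. Its only pooled entry in a start window had 16.1 at rank 29722, near the bottom of the list, and had no match in replicate 2. lin-29 covered 17691 bp of windows and introns, more than 98.9% of protein-coding genes did.

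lin-42 (WBGene00018572, II, 1233236 to 1252359, minus strand), the worm relative of the clock gene period, encodes a protein that oscillates with the molts and delays the onset of later fates. It has 5 annotated starts, 17 pooled entries and 3 thresholded ones. Only 31 protein-coding genes, or 0.155%, held 3 or more, and lin-14 and lin-42 were both among them. The strongest (chrII:1246938-1247200), in the first intron of 8173 bp, had 271 at rank 237 in the pooled list, 124 at rank 346 in replicate 1 and 147 at rank 177 in replicate 2. It stood higher by rank in replicate 2 than in replicate 1, as did 6 of the 14 thresholded summits of these genes. It lay 5289 bp downstream of the first start and 3035 bp upstream of the second, outside every window. The non-coding RNA genes F47F6.13 and F47F6.15 start 102 bp and 83 bp from it.

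The other lin-42 summits lay further into the gene. The entry at chrII:1237969-1238208, 1140 bp upstream of the fourth start and in an intron of 3559 bp of longer transcripts, had 143 at rank 778 in the pooled list, 79.1 at rank 801 in replicate 1 and 70.6 at rank 744 in replicate 2. The entry at chrII:1239519-1239938, 372 bp downstream of the third start, had 96.9 at rank 1481, then 62.7 at rank 1203 and 39.8 at rank 2037. This one is outside every start window and is coding exon in some transcripts and intron in others. At the second start the strongest pooled entry, 616 bp upstream, had 56.1 at rank 3571, and the first start had no pooled entry in its window.

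daf-12 (WBGene00000908, X, 10635908 to 10666875, plus strand) encodes the nuclear receptor for dafachronic acids, steroid hormones by which the worm chooses between L3 and the arrested dauer larva. It had the strongest entry of the 8 genes (chrX:10637343-10637766), with 294 at rank 198 in the pooled list, 187 at rank 137 in replicate 1 and 105 at rank 339 in replicate 2. The summit was at the same base, 10637546, in all 3 lists. It lay in the first intron, 8353 bp long, of the transcript F11A1.3e.3, 1638 bp downstream of the first start and 6863 bp upstream of the second. A further entry, also thresholded, had its summit at 10637756, 210 bp away and within the interval given above. This second entry had 97.2 at rank 1476, then 107 at rank 456 in replicate 1 and 16.4 at rank 11841 in replicate 2. Of the 9 starts of daf-12, none had a thresholded summit in its window, and the strongest window entry had 28.3 at rank 12869, 239 bp upstream of the last start.

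**Figure D2:**
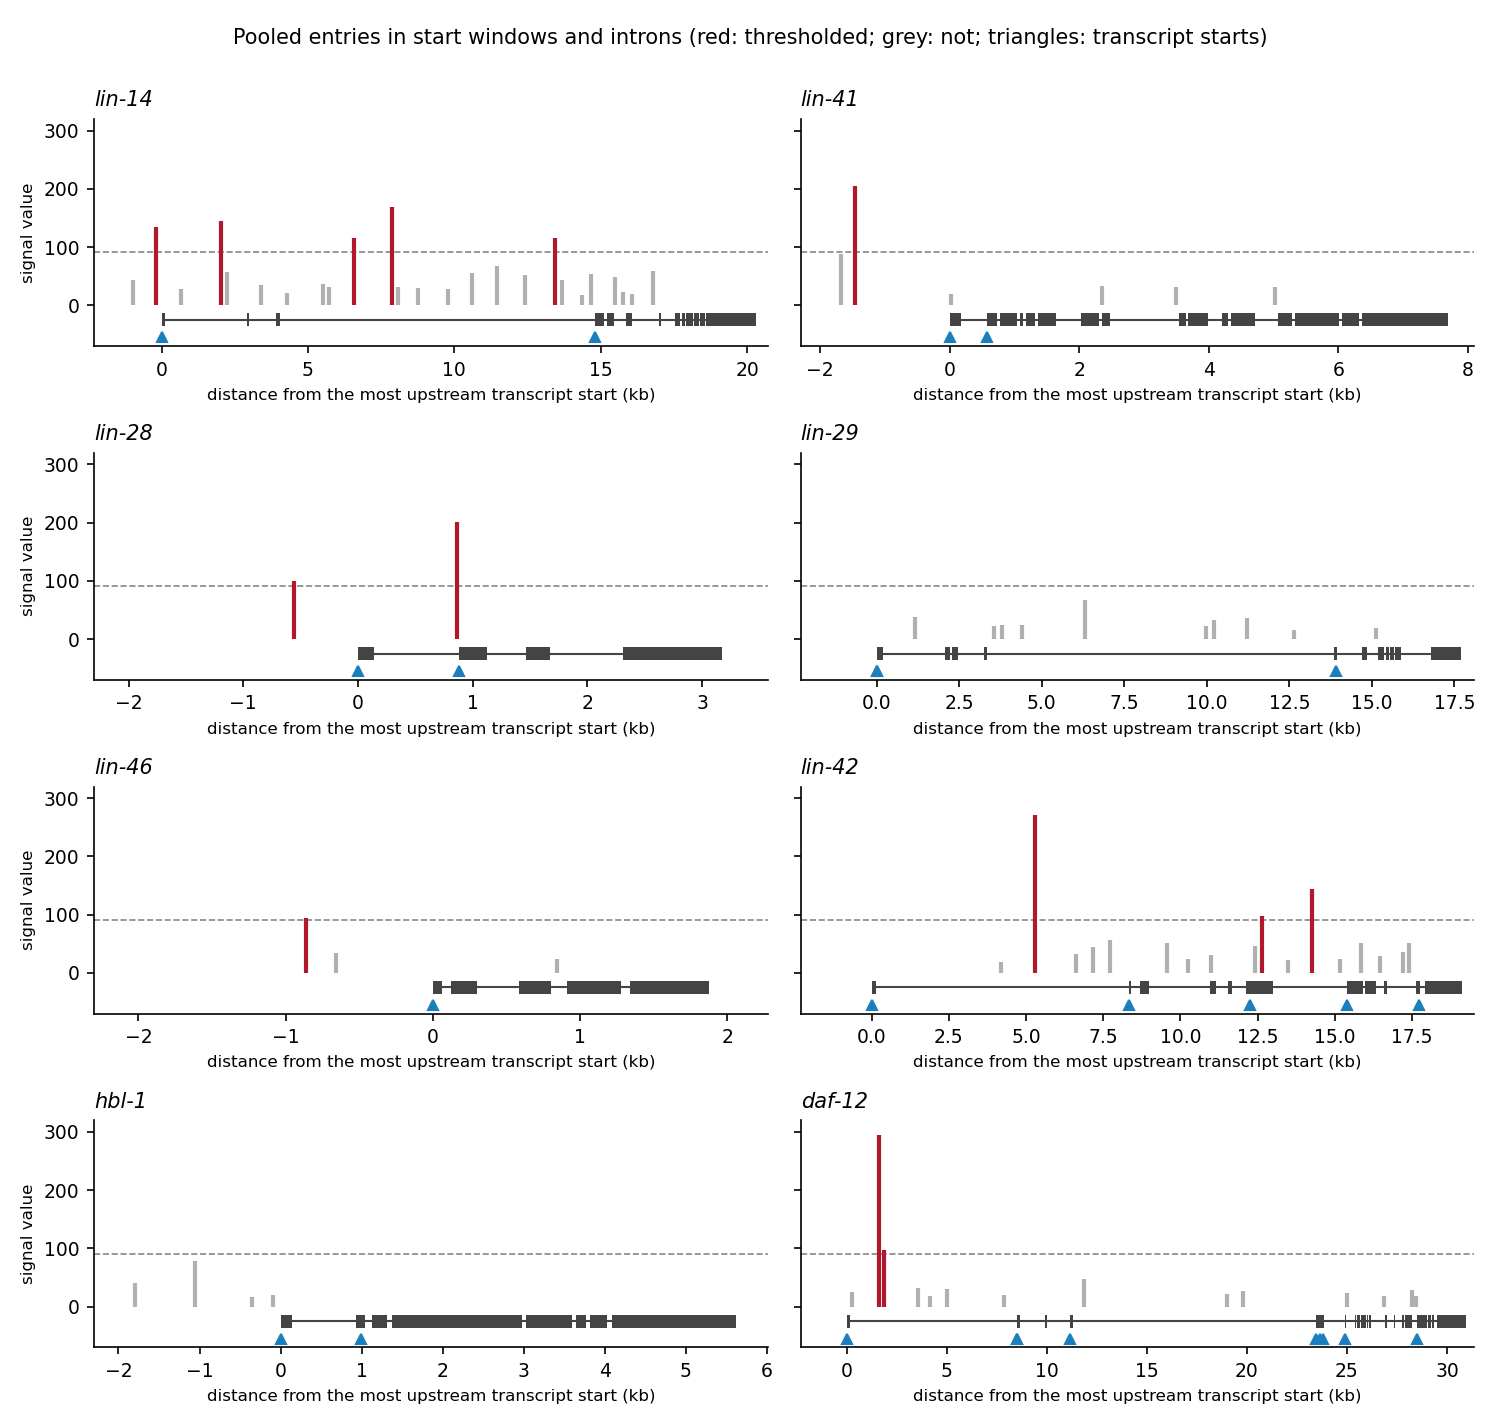
Pooled entries in the start windows and introns of each gene, with height as signal value and place as distance from the most upstream transcript start in kb, in the direction of transcription. Red lines are thresholded, grey lines are not, boxes are exons of any transcript, triangles are transcript starts and the dashed line is 91.0. The lin-14 summits spread over the gene, while those of daf-12 sit close together in the first intron.

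The place of the strongest entry therefore differed between genes. In daf-12, lin-42 and lin-14 it lay in an intron and outside every start window, and in lin-29 too. In lin-41, lin-46 and hbl-1 it lay upstream of the first start, and in lin-28 at the inner start, which is intronic to the longer transcript. For start windows alone the strongest pooled values were 205 in lin-41, 201.2 in lin-28, 143 in lin-42, 135 in lin-14, 93.9 in lin-46, 78.5 in hbl-1, 28.3 in daf-12 and 16.1 in lin-29. Beside all genes, lin-41 and lin-28 stood above 97.9% of protein-coding genes by this value, lin-42 above 96.3%, lin-14 above 95.9%, lin-46 above 93.0%, hbl-1 above 91.0%, daf-12 above 72.0% and lin-29 above 55.6%. Genes with no entry, more than those with one, count as lower, since 44.6% of all genes had any pooled entry in a start window. With introns counted as well, daf-12 stood above 99.0% of genes, lin-42 above 98.8% and lin-29 above 88.1%. The median over the 8 genes was 114 in start windows, beside 35.0 over the 8907 genes with an entry there, and 185 with introns, beside 35.3. Each value is the strongest over the sequence searched. Windows and introns covered a median of 11463.5 bp in the 8 genes and 2935 bp in all protein-coding genes. What this length adds to the values and percentages was not tested.

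**Figure D3:**
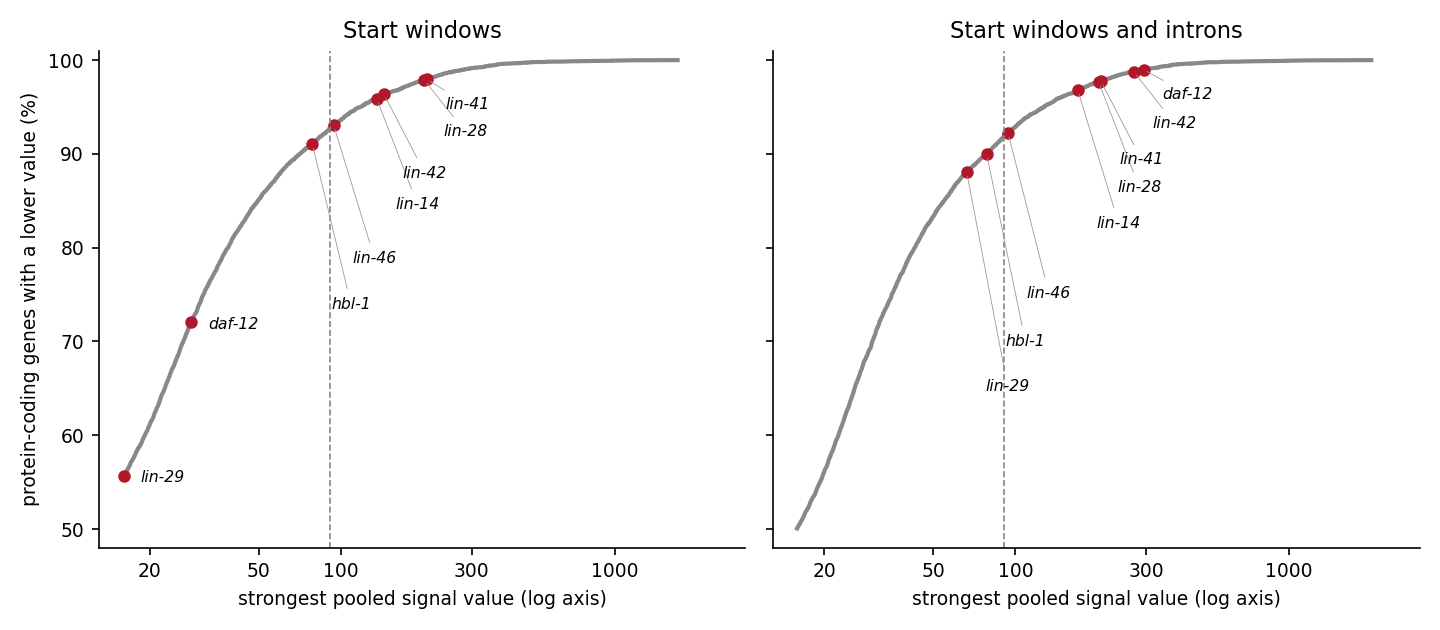
Share of all protein-coding genes with a lower value (vertical axis, %) against the strongest pooled signal value (log axis), in start windows (left) and with introns added (right), with the 8 genes as red points and the dashed line at 91.0. Adding introns moves daf-12 from 72.0% to 99.0% and lin-29 from 55.6% to 88.1%.

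The order of the genes by their strongest entry was not the same in both replicates. In replicate 1 daf-12 led with 187, then lin-28 with 132, lin-42 with 124, lin-41 with 118 and lin-14 with 91.9. In replicate 2 lin-42 led with 147, then daf-12 with 105, lin-41 with 95.4, lin-14 with 76.3 and lin-28 with 67.8. The order among these 5 genes is therefore not settled by 2 replicates. lin-46, hbl-1 and lin-29 came after them in both.

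All 14 thresholded summits had a replicate entry with its summit within 100 bp in both replicates. These summits were chosen from a pool of both, by a list whose label names a measure of replicate agreement, so that is a description. In 9 of 14 both ranks were within 1631, beside 70.6% of all thresholded entries. The ratio of the replicate 1 to the replicate 2 signal value had a median of 1.22 over the 14 and of 1.18 over the 1566 thresholded entries matched in both. The second daf-12 summit, at 6.55, was higher than 99.9% of those entries. The lin-28 summits, at 1.95 and 2.08, were higher than 94.4% and 96.2%, and the strong daf-12 summit, at 1.78, than 91.8%. The lin-42 summit in the first intron, at 0.846, was higher than 14.0%. The 5 lin-14 summits ranged from 1.08 to 1.60.

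**Figure D4:**
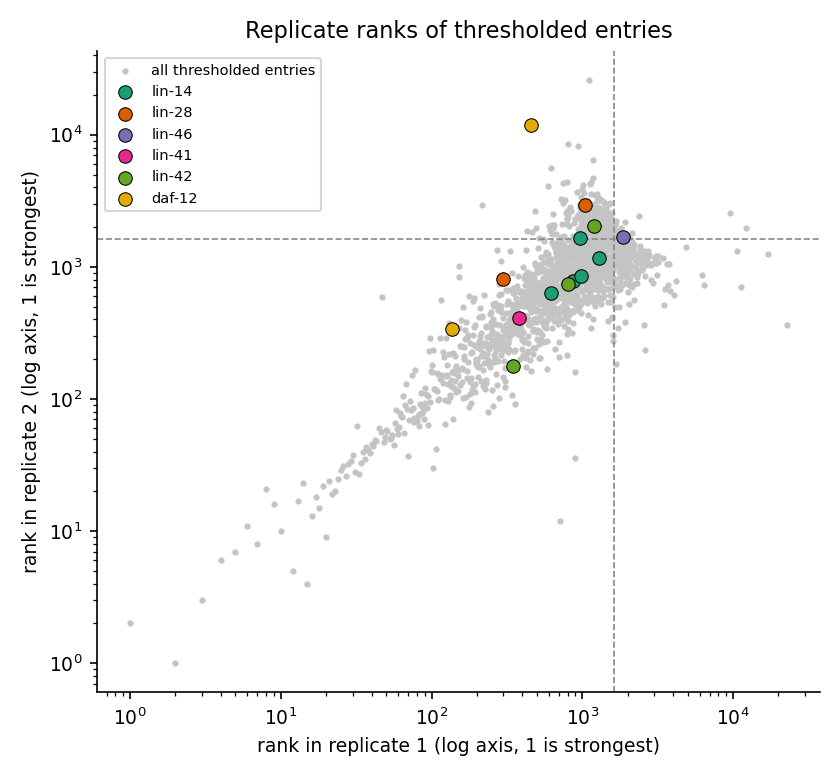
Rank in replicate 1 against rank in replicate 2 (both log axes, rank 1 is strongest) for thresholded entries matched in both replicates (grey) and those of 6 heterochronic genes (coloured), with dashed lines at 1631. The second daf-12 summit lies apart, at 456 and 11841, and the lin-28 summits lie on the side of a lower place in replicate 2.

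Summits close to a stronger one were uncommon among thresholded entries: 50 of 1631, or 3.07%, had a stronger summit within 210 bp, and 1 of the 14 did, the second of daf-12. The near-threshold second summit of lin-41 was of the same kind.

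The 14 thresholded summits were searched for short motifs in the same span as above, on both strands, as were all 1609 thresholded windows on nuclear chromosomes and 28369 windows of other pooled entries. GGTGTG, the core of the T-box site, was in 1 of the 14, that of lin-41, 64 bp from the summit, beside 7.58% of thresholded and 5.93% of other windows. GGTGTGA, which contains it, was in 0 of 14, beside 0.994% and 1.64%. TGATAA, which factors of the GATA family bind, was in 2 of 14 (lin-28 and lin-46), beside 10.0% and 15.3%. GAGAGA was in 6 of 14, beside 42.1% and 17.1%, with 3 matches in the lin-42 sequence upstream of the fourth start, the nearest 2 bp from its summit. CANNTG, the E-box, was in 9 of 14, beside 58.0% and 56.1%. Each share over the 14 is near that of all thresholded windows, and a match or its lack is a fact about these letters only.

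Base composition did vary among the genes. G and C made up a median of 49.3% of the 14 windows, from 40.8% in lin-46 to 69.2% in lin-42. The median was 45.8% over all thresholded windows and 38.8% over other pooled entries. The lin-42 window upstream of the fourth start was higher than 99.9% of thresholded windows. The lin-42 first intron stood at 62.2%, the strongest daf-12 summit at 61.2% and the strongest lin-14 summit at 57.7%. Neither the hbl-1 window, at 56.2%, nor that of lin-29, at 51.2%, was thresholded. Whether base composition bears on the signal values was not tested.

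**Figure D5:**
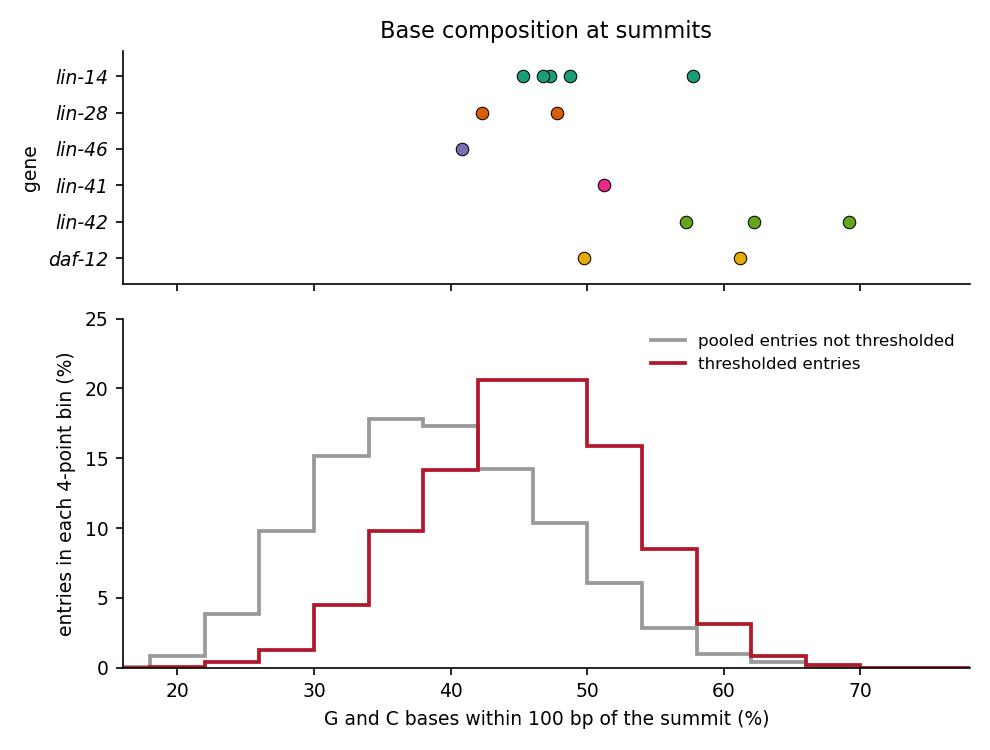
G and C share within 100 bp of each thresholded summit of 6 genes (top, %) above the distribution over all thresholded (red) and other pooled (grey) entries (bottom, % of entries in each 4-point bin). The 3 lin-42 summits, from 57.2% to 69.2%, lie in the upper tail of the thresholded distribution.

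Another 19 genes that act with this pathway were read in the same way. Thresholded summits lay in the start window of 8 of 19, in an intron of 5 and in either of 9, beside the shares of 7.24%, 1.7% and 8.07% over all protein-coding genes. Their windows and introns covered from 2205 bp in col-19 to 21363 bp in sea-2, beside a median of 2935 bp over all protein-coding genes. Most of the 19 have several annotated starts, and what length or starts add to these counts was not tested. The 3 strongest entries were those of nhl-2, puf-9 and ain-1. nhl-2, a TRIM-NHL cofactor of the microRNA complex, had 796 at rank 42 in the pooled list, with rank 41 in replicate 1 and 44 in replicate 2, at a summit that also lies 565 bp upstream of tag-340. puf-9, of the Pumilio family, had 497 at rank 68, shared with the window of dct-11, and ain-1, a GW182 relative, had 388 at rank 107. alg-1, an Argonaute protein of the microRNA pathway, had 106 at rank 1271.

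Partners of the 8 genes themselves also had thresholded summits. kin-20, a casein kinase relative of the fly gene doubletime, had 244 at rank 293, and din-1, the corepressor that works with DAF-12, had 220 at rank 367. kin-20 and din-1 each held 4 thresholded summits in start windows and introns. Both are thus, like lin-14 and lin-42, among the 31 protein-coding genes with 3 or more. lin-66, which lowers lin-28 expression, had 178 at rank 554, and mab-10, a cofactor of LIN-29, had 112 at rank 1165. The mab-10 entry ranked 766 in replicate 1 and 3198 in replicate 2, and the alg-1 entry 2197 and 741. sea-2 had only an intronic thresholded summit, 97.8 at rank 1460. For the other thresholded pathway entries named here, both replicate ranks were within 1631. The other 10 genes had no thresholded summit, and blmp-1, with 87.8 at rank 1745, and nhr-23, with 80.02 at rank 2038, came nearest to the threshold. Among these 10 were also ain-2, with 70.9 at rank 2454, and alg-2, with 59.8 at rank 3198. col-19, the adult collagen gene that LIN-29 turns on, had no pooled entry at all in its window.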

How the data were processed

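Whole L3 worms of 1 group were profiled in 2 biological replicates, and the deposited ce11 lists were used: a ranked list for each replicate, 1 for the pooled replicates and 1 thresholded. Signal values are those the authors deposited from their peak caller, in its own unit, and the −log10 q value, also deposited by the authors, was 2.76 in every thresholded entry and so was not used for ranking. For the aligner, the caller and its settings, nothing is given in the sources used here. A control experiment that the labels list as possible was not analysed. The lists hold no counts, so depth is unknown, and no interval or test was computed.

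Summits were assigned to genes with the Ensembl release 115 annotation of WBcel235, whose coordinates are those of ce11; 0 entries passed a chromosome end. A replicate entry matched a pooled one where their summits lay within 100 bp and was the strongest such entry. Shared summits were counted for each gene. Python 3.11.15, numpy 2.4.6 and pandas 2.3.3 were used. The assignment to start windows was run on simulated summits planted inside such windows, and it recovered all of them. That checks only the code for start windows, and the assignment to introns was not checked in this way. All thresholded entries of the 8 genes and their strongest window and intron entries are named, and of the pathway list those with a thresholded summit. The genes blmp-1, nhr-23, ain-2, alg-2 and col-19 were named after their values were seen. The members and lists were chosen with earlier results of these data known. Alternatives were other windows, other thresholds, the most upstream start alone and each replicate alone.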

Additional observations from a re-analysis of the deposited data

How the results depend on the processing

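The count of 5 heterochronic genes with a thresholded summit in a start window fell to 3 (lin-14, lin-28 and lin-46) with 1000 bp upstream, to 2 (lin-14 and lin-28) with 500 bp, and to 3 (lin-28, lin-41 and lin-42) with the stronger part of the thresholded entries, those above their median rank. The share over all protein-coding genes, 7.24% as reported, was 5.36% with 1000 bp, 4.07% with 500 bp and 3.85% with that stronger part. As many pooled entries as the ce10 thresholded list holds, 2343, added hbl-1 for a count of 6, beside 9.61% of all genes. With the most upstream start alone it was 4, without lin-42, beside 6.68%. Each replicate alone gave 4 to 4, both without lin-46, while the share over all genes was 6.82% to 7.01%. The intron count was 4 to 4 with each replicate alone and 3 with introns outside start windows, without lin-28. The 8 of 19 pathway genes became 6 to 10, and 8 to 8 with each replicate alone. Replicate 2 alone kept the same 8 genes, while replicate 1 alone lost alg-1 and gained blmp-1. Signal values of a replicate alone are on that list's own scale. No paired analysis was possible because there was 1 group. Depth is unknown, and neither a control list nor an untagged strain was analysed here, so the height of an entry could not be set against the background at the same place.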

Other observations

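Some thresholded summits lay near the 8 genes but outside their start windows and introns. A pair with overlapping intervals lay far upstream of hbl-1 and inside no coding gene. The stronger, 9970 bp upstream of the first start, at chrX:5812043-5812255, had a signal value of 228 at rank 339. The other, 9768 bp upstream, at chrX:5812164-5812583, had 124 at rank 1008. The nearest coding start to the first of these was that of F13D11.3, 6250 bp away. hbl-1 had no thresholded summit in its own start windows or introns. A further summit lay just past the 3 prime end of lin-42, at chrII:1232948-1233367, with 97.2 at rank 1477, and was 1467 bp from the last lin-42 start.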
